A study of Mus musculus with 12 samples.

Results

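The genes described here are the chemokines and the chemokine receptors of the mouse heart. They were chosen by name: every protein-coding gene of the deposited table whose symbol is Ccl, Cxcl, Ccr or Cxcr followed by a number. This gave 50 genes, of 18111 protein-coding genes and 26781 genes in all. They comprise 22 Ccl and 12 Cxcl ligand genes, 11 Ccr and 5 Cxcr receptor genes. All hearts were from mice of the inbred strain C57BL/6J, and each of 4 groups had 3 libraries. MI+CIH combined both conditions, MI and CIH had 1 each, and sham had neither. MI is taken to stand for a myocardial infarction and CIH for chronic intermittent hypoxia, the repeated drops in oxygen that accompany disordered breathing in sleep. The labels give no age, sex, time after surgery, oxygen level or region of the heart, and do not say whether a library is 1 animal. The p-values therefore measure the spread between libraries of the same label, which may be technical.

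Chemokines are small secreted proteins that guide leukocytes along concentration gradients. Their receptors span the membrane and couple to inhibitory G proteins, and several ligands can share a receptor. In infarcted hearts the axis of Ccl2 and its receptor Ccr2 is known for drawing in inflammatory monocytes. Cxcl1 and its relatives draw in neutrophils through Cxcr2. Cxcl12, made by stromal and endothelial cells, holds and guides cells that carry Cxcr4. A whole-tissue library averages all cells of the sample, so that fewer cells of a type and less RNA per cell cannot be told apart.

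Many of these genes lie next to each other. On GRCm38, Ccl2, Ccl7, Ccl11, Ccl12, Ccl8 and Ccl1 lie on chromosome 11, from base 82035571 in Ccl2 to base 82305690 in Ccl1. Ccl5, Ccl9, Ccl6, Ccl3 and Ccl4 follow on the same chromosome, from 83525778 to 83664683. Cxcl5, Cxcl3, Cxcl15, Cxcl1 and Cxcl2 lie together on chromosome 5, from 90759360 to 90905938. In all, 14 of the 50 genes lie on chromosome 11, 10 on chromosome 5 and 10 on chromosome 9, where most of the CC receptor genes are.

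Promoter sequences are shown for the neutrophil attractants Cxcl1, Cxcl2 and Cxcl3, whose levels in 1 library are described below, for Cxcl10, and for the neighbours Ccl6 and Ccl9. They are taken from RefSeq on GRCm38.p6, read 5′ to 3′ on the strand of the gene, and end before the transcription start. Capitals mark each match to the consensus site of the transcription factor NF-κB, on either strand.
Cxcl1, chr5:90891135-90891234, plus strand: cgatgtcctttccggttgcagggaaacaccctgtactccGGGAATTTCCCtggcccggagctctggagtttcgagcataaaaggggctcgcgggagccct
Cxcl2, chr5:90903763-90903862, plus strand: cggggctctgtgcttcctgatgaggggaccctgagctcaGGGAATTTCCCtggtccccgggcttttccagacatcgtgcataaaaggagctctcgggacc
Cxcl3, chr5:90785989-90786088, plus strand: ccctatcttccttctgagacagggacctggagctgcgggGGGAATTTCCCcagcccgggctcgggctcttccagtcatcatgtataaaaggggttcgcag
Cxcl10, chr5:92348890-92349139, minus strand: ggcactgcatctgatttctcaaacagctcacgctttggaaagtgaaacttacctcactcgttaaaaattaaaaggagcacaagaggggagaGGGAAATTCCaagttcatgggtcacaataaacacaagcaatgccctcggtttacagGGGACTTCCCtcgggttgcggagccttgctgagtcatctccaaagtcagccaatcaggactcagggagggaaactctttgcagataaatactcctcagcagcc
Ccl9, chr11:83578637-83578736, minus strand: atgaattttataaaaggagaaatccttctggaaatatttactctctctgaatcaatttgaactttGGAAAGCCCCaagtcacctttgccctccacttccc
Ccl6, chr11:83593088-83593187, minus strand: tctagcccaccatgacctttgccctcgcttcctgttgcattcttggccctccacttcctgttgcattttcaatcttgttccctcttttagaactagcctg

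The same 11 letters, GGGAATTTCCC, stood upstream of Cxcl1, Cxcl2 and Cxcl3, where matches on both strands overlap by all but 1 base. The match began 71 bases before the start of Cxcl1, 97 before that of Cxcl2 and 73 before that of Cxcl3. The stretches shown were cut so that these 11 letters stand at the same position in each. Compared position by position, Cxcl1 and Cxcl2 share 42 of 100 bases, Cxcl1 and Cxcl3 41, and Cxcl2 and Cxcl3 32. Each of these counts includes the 11 letters. In windows from 250 bases before to 50 after the start, available for 36 of the 50 genes, the NF-κB consensus was present in 9 genes, against 4.51% of all 32851 windows. These are Ccl9, Ccl20, Ccl27a, Ccr3, Ccr6, Cxcl1, Cxcl2, Cxcl3 and Cxcl10. The interferon response element, TTTC followed by any 2 bases and TTTC again, searched on both strands, was present in 3 of the 36 (Ccl19, Cxcl10 and Cxcl14), against 3.44% of all windows. The letters GAGGAA of the myeloid factor PU.1, on either strand, were in 13 of the 36, against 28.3% of all windows, and the hypoxia response letters ACGTG, on either strand, in 6, against 19.6%. The letters TATAAA, searched on the strand of the gene, were in 9, against 8.32%. A match describes letters in a window, not a bound site.

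Library totals ranged from 26.06 to 33.42 M reads, recovered from the steps between low FPKM values. FPKM scales the reads of a gene by its exon length and by the reads of the library. A gene was tested when it reached 0.5 FPKM in at least 3 of the 12 libraries, which 15503 genes did. Changes are differences of log2(FPKM + 0.5), which understates those of low genes, with the standard error (SE) and the Benjamini-Hochberg adjusted p of limma, called at 0.05. Group means are given with their SD over n = 3 libraries, and the values of a group stand in the order of its replicates 1, 2 and 3. Groups that do not overlap are common. Of all tested genes, 5.67% lay all above and 11.8% all below in CIH against sham. The shares were 19.8% and 11.7% in MI against sham, and 14.6% and 9.19% in MI+CIH against MI. They were 27.3% and 10.3% in MI+CIH against CIH, and 23.8% and 12% against sham. Markers of heart muscle cells were present in every library, their 5 genes summing to 3850 FPKM or more. MI+CIH 3 stood apart, with the lowest heart muscle sum (3850 FPKM, against 8820 to 13800 FPKM elsewhere). Of all tested genes 30.9% were highest in it. Markers of airway and lung were high in the 3 MI+CIH libraries and in sham 2, with the values given beside Cxcl17. Changes that moved by over 1.5 times, or crossed the threshold, without MI+CIH 3 are given also without it where they are described.

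Of the 50 genes, 27 passed the filter on low values: 22 ligands and 5 receptors. The other 23 were below it. Among these Ccl21a was at 0 in all 12 libraries, and the highest single value was 5.65 FPKM, of Cxcl15 in MI+CIH 2. A mean of at least 1 FPKM over the 12 libraries was reached by 20 genes. The FPKM of the 50 genes summed to 110, 107 and 292 in MI+CIH, 109, 84.2 and 92.4 in MI, 55.2, 85.1 and 66.2 in CIH, and 83.6, 85.1 and 103 in sham. MI+CIH 3 had the highest sum and CIH 1 the lowest. The other MI+CIH libraries lay close to the highest MI and sham libraries. Of the 27 tested genes, 13 had their highest value in MI+CIH 3.

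**Figure D1:**
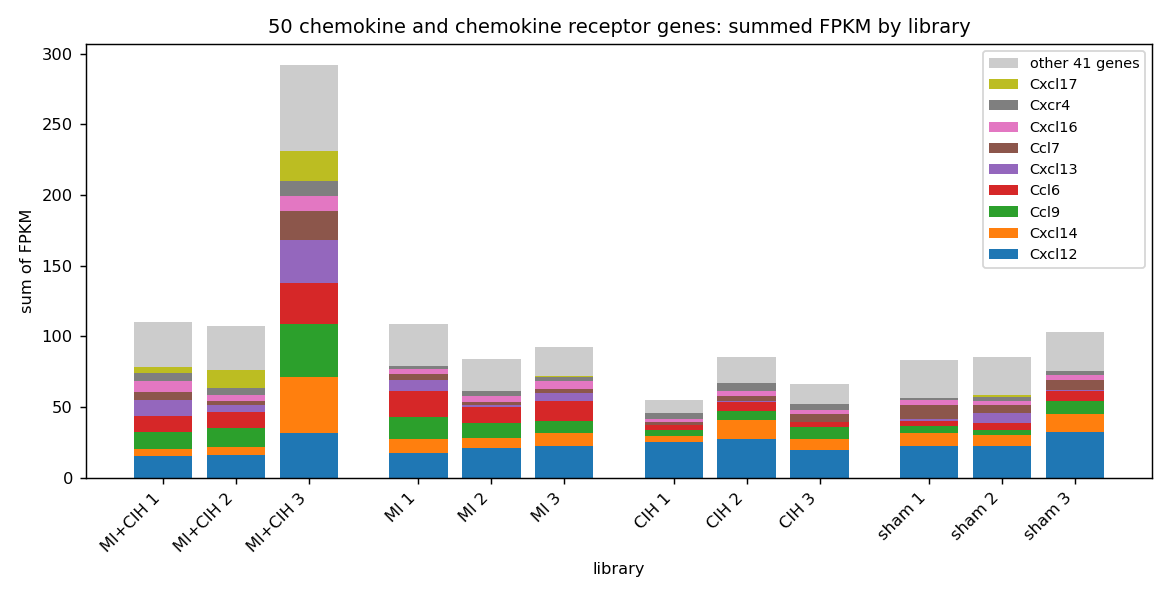
Stacked bars give the summed FPKM of the 50 genes in each of the 12 libraries, with 9 genes drawn in colour and the other 41 in grey. MI+CIH 3 reaches 292 FPKM, and the remaining libraries lie between 55.2 and 110 FPKM.

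The number of genes that passed the test differed widely between comparisons, for these genes as for all genes. Of the 27 tested genes, 12 passed in MI+CIH against CIH (44.4%), 11 higher and 1 lower, against 28.2% of all tested genes. Higher calls alone were 40.7% of the 27 and 19.9% of all genes. Against sham, 8 of 27 passed in MI+CIH (29.6%), all 8 higher, against 16.8% of all genes in either direction and 11.3% higher. Both counts include Cxcl17 and Ccl17, which reached the filter through MI+CIH, the group where they were high. In MI against sham 1 passed (3.7%), lower, against 1.96% of all genes. The comparison of MI+CIH with MI gave 1, Cxcl17, higher, against 0.329%. In CIH against sham limma called 0 of 27, against 0.00645% of all genes. For this contrast 6 of the 27 (22.2%) had an unadjusted p under 0.05, against 11.8% of all genes, and voom with limma on the recovered reads also called 0. The interaction asks whether CIH moved a gene differently in infarcted and in sham hearts: the change of MI+CIH against MI less that of CIH against sham. Limma called 0 of 27 in it, against 0.0774% of all genes. An unadjusted p under 0.05 was found for 10 of 27 (37%), against 21.2% of all genes, and voom also called 0. The comparisons share groups: MI+CIH against CIH and MI+CIH against sham use the same 3 MI+CIH libraries, and 7 genes passed in both. How many of all tested genes passed in both was not counted, so the 7 have no background to be read against.

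The median log2 change of the 27 genes was 1.12 in MI+CIH against CIH, where that of all genes was 0.20, and 0.21 in MI+CIH against sham, where that of all genes was 0.12. It was 0.44 in MI+CIH against MI (0.05 over all genes), -0.27 in CIH against sham (-0.07) and -0.04 in MI against sham (0.06). The interaction had a median of 0.74 over the 27 genes and 0.13 over all genes. With median-of-ratios scaling, which moved the all-gene median of MI+CIH against CIH to 0.07, the 27 genes had a median of 0.98 and again 12 calls.

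**Figure D2:**
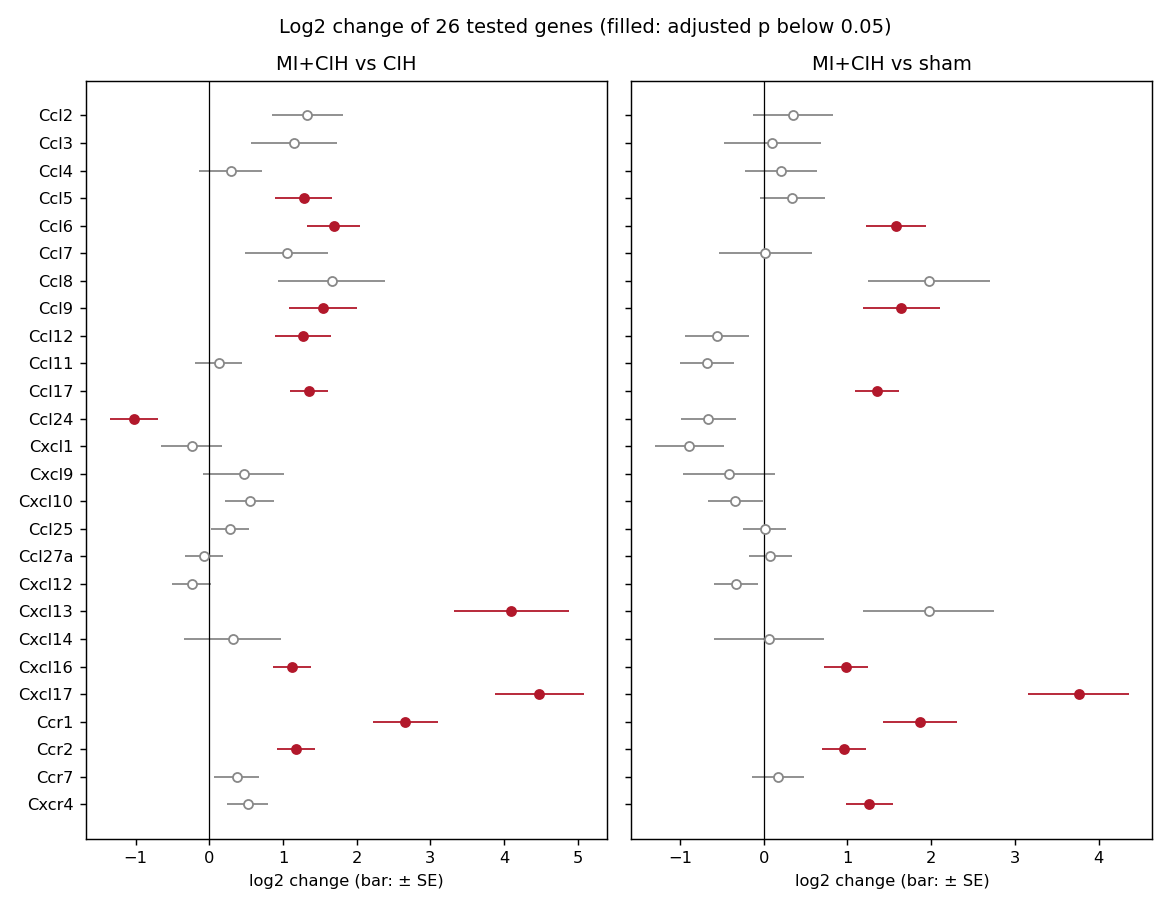
Log2 change with its SE for 26 of the 27 tested genes, ordered by role, in MI+CIH against CIH (left) and MI+CIH against sham (right); filled points passed the limma test. The 11 filled points on the left include Ccl24 below 0, and the 8 on the right all lie above 0.

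Among the 9 CC ligands known to attract monocytes and macrophages, all tested, Ccl6 and Ccl9 were the most abundant and rose in MI+CIH against both CIH and sham. Ccl6 and Ccl9 are rodent chemokines of myeloid cells that act on Ccr1. Ccl5 and Ccl12 rose in MI+CIH against CIH and did not pass against sham. Over the 9 genes the median log2 change was 1.28 in MI+CIH against CIH and 0.34 in MI+CIH against sham, with 4 and 2 calls, all higher, where 19.9% and 11.3% of all genes were called higher.

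Ccl6 had 11.1, 11.5 and 29.1 FPKM in MI+CIH, 18.2, 11.6 and 13.9 FPKM in MI, 3.82, 6.13 and 3.81 FPKM in CIH, and 3.57, 4.68 and 6.83 FPKM in sham. All 6 libraries of MI+CIH and MI lay above all 6 of CIH and sham. The change was 1.69 (SE 0.36, adjusted p = 0.00727) in MI+CIH against CIH and 1.58 (SE 0.36, adjusted p = 0.0155) in MI+CIH against sham. The change in MI against sham was 1.47 and did not pass (adjusted p = 0.0684). With MI+CIH 3 left out of the shared fit it was again 1.47 and passed (adjusted p = 0.017). Without sham 1 the change of MI+CIH against sham was 1.38 and did not pass (adjusted p = 0.0648).

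Ccl9 had 12.0, 13.9 and 37.8 FPKM in MI+CIH, 15.9, 10.1 and 9.02 FPKM in MI, 3.91, 7.0 and 8.06 FPKM in CIH, and 4.68, 3.89 and 9.67 FPKM in sham. The 3 MI+CIH libraries lay above those of CIH and sham and overlapped with MI. The change was 1.54 (SE 0.46, adjusted p = 0.0303) against CIH and 1.64 (SE 0.46, adjusted p = 0.0349) against sham. Both calls were lost without MI+CIH 3, with 1.03 (adjusted p = 0.0935) against CIH and 1.13 (adjusted p = 0.102) against sham. That against CIH was also lost without CIH 1 (1.25, adjusted p = 0.0918) and CIH 2 (1.63, adjusted p = 0.0547), and that against sham without sham 1 (1.51, adjusted p = 0.109) and sham 2 (1.39, adjusted p = 0.113).

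Ccl12, a mouse ligand of Ccr2, had 3.07, 4.6 and 4.59 FPKM in MI+CIH, 2.72, 4.53 and 2.98 FPKM in MI, 0.463, 2.56 and 1.74 FPKM in CIH, and 7.82, 4.16 and 7.12 FPKM in sham. The CIH libraries were below all others, and sham 1 and sham 3 were the highest. Ccl12 rose by 1.27 (SE 0.38, adjusted p = 0.0314) in MI+CIH against CIH. In CIH against sham its 3 libraries did not overlap with those of sham, and the change of -1.83 (SE 0.38) did not pass (adjusted p = 0.173). The call against CIH was lost without MI+CIH 2 (1.18, adjusted p = 0.0738), MI+CIH 3 (1.18, adjusted p = 0.0963), CIH 1 (0.79, adjusted p = 0.0674) or CIH 3 (1.4, adjusted p = 0.0529).

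Ccl5, which attracts T cells and monocytes through receptors that include Ccr1, had 2.08, 0.257 and 1.19 FPKM in MI+CIH, 0.304, 0.234 and 0.66 FPKM in MI, 0.111, 0.249 and 0 FPKM in CIH, and 0.494, 0.775 and 0.79 FPKM in sham. MI+CIH 2, with 7 reads, lay just above CIH 2, with 8 reads in a deeper library, and below all sham libraries. The change was 1.28 (SE 0.39, adjusted p = 0.03) in MI+CIH against CIH. Without MI+CIH 2 it also passed against MI (1.24, adjusted p = 0.0377) and in the interaction (2.19, adjusted p = 0.0202). The change against CIH did not pass without MI+CIH 1 (0.89, adjusted p = 0.103), MI+CIH 3 (1.19, adjusted p = 0.0911), CIH 1 (1.28, adjusted p = 0.0575) or CIH 3 (1.14, adjusted p = 0.0957).

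The monocyte attractants Ccl2, Ccl7 and Ccl8 were highest in MI+CIH 3 and did not pass in any comparison. Ccl2 had 0.742, 0.837 and 5.99 FPKM in MI+CIH, 0.942, 0.789 and 0.732 FPKM in MI, 0.375, 0.394 and 0.371 FPKM in CIH, and 1.22, 1.25 and 1.25 FPKM in sham. The CIH libraries lay below all others and the MI libraries below those of sham, while MI+CIH held the highest library and 2 below sham. The change of Ccl2 in MI+CIH against CIH was 1.33 (SE 0.48, adjusted p = 0.0617), and it passed when any MI+CIH library was left out, at 1.74 without MI+CIH 1 (adjusted p = 0.0304), 1.69 without MI+CIH 2 (adjusted p = 0.0305) and 0.55 without MI+CIH 3 (adjusted p = 0.0455). Against sham it was 0.35, and -0.43 without MI+CIH 3 (adjusted p = 0.136).

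Ccl7 had 5.56, 2.95 and 20.6 FPKM in MI+CIH, 4.1, 2.43 and 3.08 FPKM in MI, 1.77, 3.29 and 5.31 FPKM in CIH, and 9.22, 5.66 and 6.63 FPKM in sham. All MI and CIH libraries lay below all sham libraries, with changes of -1.05 (adjusted p = 0.384) in MI and -1.03 (adjusted p = 0.498) in CIH. The change of Ccl7 in MI+CIH against CIH was 1.05 and did not pass (adjusted p = 0.189). Without MI+CIH 3 it was 0.31 (adjusted p = 0.609), and without MI+CIH 2 it was 1.62 and passed (adjusted p = 0.0415). Against sham it was 0.02, and -0.72 without MI+CIH 3 (adjusted p = 0.278). Ccl8 had 4.35, 1.72 and 14.1 FPKM in MI+CIH, 7.94, 1.98 and 2.54 FPKM in MI, 0.348, 1.76 and 2.12 FPKM in CIH, and 0.265, 1.18 and 1.55 FPKM in sham. All libraries of MI+CIH and of MI lay above those of sham, with changes of 1.97 (SE 0.73, adjusted p = 0.0882) in MI+CIH and 1.53 (SE 0.73, adjusted p = 0.324) in MI. Without MI+CIH 3, its highest library, the change of Ccl8 in MI+CIH was 1.25 against sham (adjusted p = 0.285) and 0.94 against CIH (adjusted p = 0.367), where it was 1.66 with that library. Without MI+CIH 2 both passed, at 2.61 (adjusted p = 0.0317) against sham and 2.3 (adjusted p = 0.0378) against CIH.

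Ccl3 and Ccl4, made by activated macrophages and lymphocytes, were low. Ccl3 had 0 reads in the 3 CIH libraries, and its means were 0.676 ± 0.445 FPKM in MI+CIH, 1.03 ± 0.975 FPKM in MI and 0.728 ± 0.883 FPKM in sham. With 3 reads in each CIH library as the floor, the mean was at least 5.41-fold higher in MI+CIH than in CIH. The floor and the interval given below for Ccl17 cover counting error only. The fitted change of 1.15 (SE 0.58) did not pass (adjusted p = 0.157). The CIH and sham libraries also did not overlap, and the fitted change of -1.05 did not pass (adjusted p = 0.498). Ccl4 ranged from 0 to 0.873 FPKM over the 12 libraries and passed in no comparison.

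Of the 11 CC receptor genes 4 were tested, and Ccr1, found on monocytes and macrophages, had the largest change among them. Ccr1 and Ccr2 rose in MI+CIH against both CIH and sham. Ccr1 had 2.28, 2.9 and 9.68 FPKM in MI+CIH, 2.3, 2.48 and 2.28 FPKM in MI, 0.138, 0.507 and 0.0958 FPKM in CIH, and 0.419, 0.613 and 1.43 FPKM in sham. All MI+CIH and MI libraries lay above all CIH and sham libraries. The change was 2.66 (SE 0.44, adjusted p = 0.00268) in MI+CIH against CIH and 1.87 (SE 0.44, adjusted p = 0.0174) against sham. For MI against sham it was 1.19 and did not pass (adjusted p = 0.207). Without MI+CIH 3 both MI+CIH calls held, at 2.08 (adjusted p = 0.00561) and 1.29 (adjusted p = 0.0368). The call against sham was lost without sham 1 (1.64, adjusted p = 0.0719) or sham 2 (1.78, adjusted p = 0.0565).

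Ccr2, the receptor of Ccl2, Ccl7 and Ccl12, had 1.07, 1.22 and 2.42 FPKM in MI+CIH, 0.889, 0.802 and 0.69 FPKM in MI, 0.173, 0.469 and 0.54 FPKM in CIH, and 0.361, 0.529 and 0.702 FPKM in sham. The MI+CIH libraries lay above all others. The change was 1.18 (SE 0.26, adjusted p = 0.00863) against CIH and 0.96 (SE 0.26, adjusted p = 0.0304) against sham. The call against sham was lost without MI+CIH 3 (0.68, adjusted p = 0.107), sham 1 (0.84, adjusted p = 0.112) or sham 2 (0.97, adjusted p = 0.0782). For the ligand Ccl2, by contrast, 2 of the 3 MI+CIH libraries lay below all sham libraries.

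Ccr7, which guides dendritic and T cells to lymph nodes, ranged from 0.05 to 0.582 FPKM and passed in no comparison.

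The 11 markers of monocytes and macrophages summed higher in MI+CIH than in CIH and sham, as did Ccl6, Ccl9, Ccr1 and Ccr2. They summed to 349, 426 and 630 FPKM in MI+CIH, 326, 239 and 300 FPKM in MI, 116, 266 and 242 FPKM in CIH, and 151, 161 and 211 FPKM in sham. Lyz2 alone made up 211, 294 and 395 FPKM in MI+CIH. In MI the sums lay above those of sham, while some ligands went the other way. Ccl2, Ccl5, Ccl7 and Ccl12 changed by -0.4, -0.42, -1.05 and -0.8 in MI against sham, and none passed. All 11 markers passed as higher in MI+CIH against CIH, and 7 did against sham, where 19.9% and 11.3% of all genes were called higher. The sums of fibroblast, fat cell and T cell markers were also higher in MI+CIH than in CIH and sham. Those of endothelial markers overlapped. The fibroblast sums were 544, 430 and 843 FPKM in MI+CIH, 315, 341 and 482 FPKM in MI, 125, 215 and 157 FPKM in CIH, and 157, 158 and 181 FPKM in sham. As for Ccl6 and Ccr1, all MI+CIH and MI libraries lay above all CIH and sham libraries. In the macrophage sum MI 2 lay below CIH 2. The part of any of these cells in the changes of the CC ligands and receptors was not tested.

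**Figure D3:**
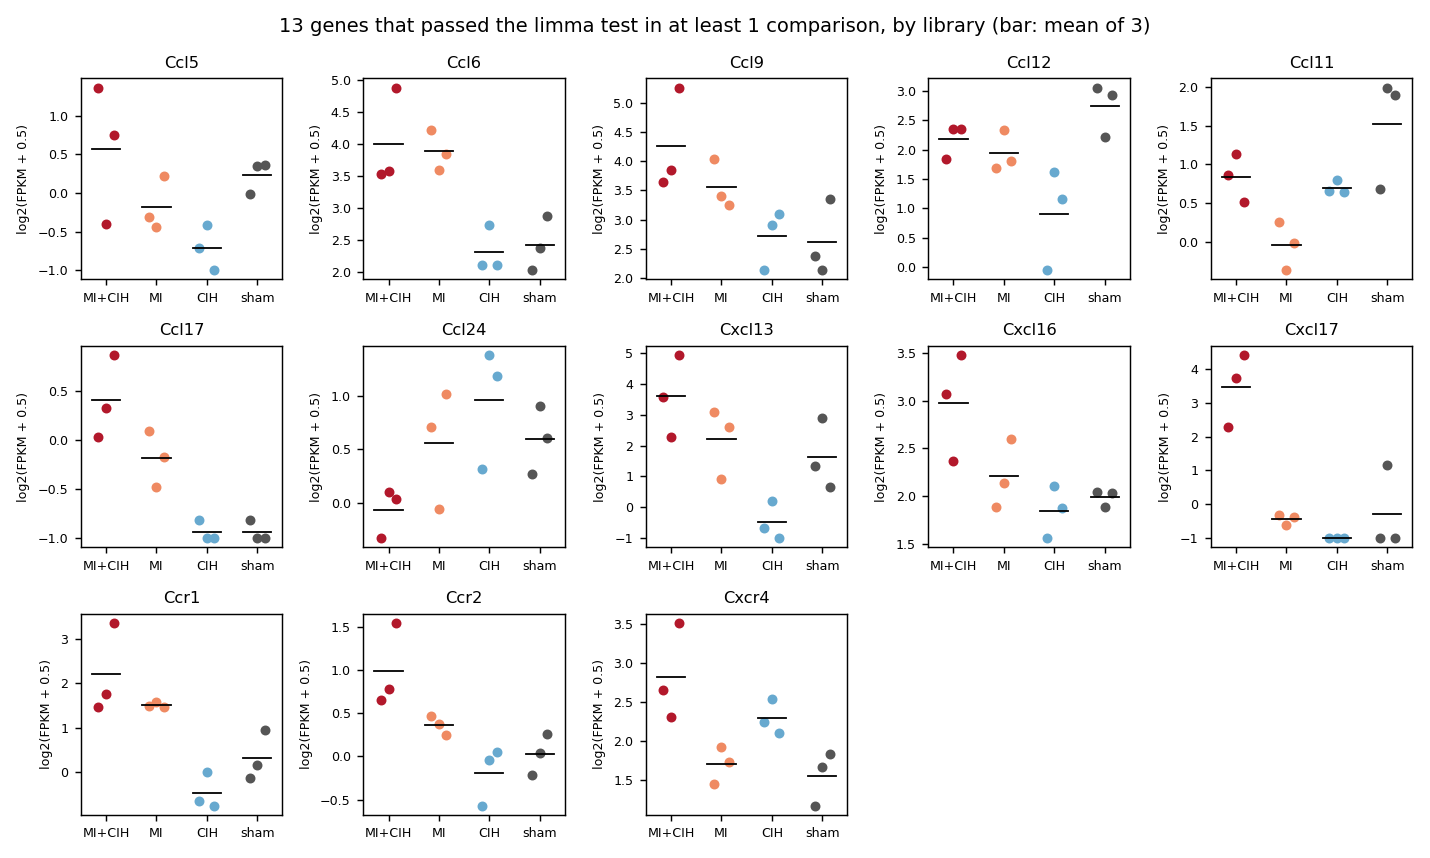
Each panel shows 1 of 13 genes that passed in at least 1 comparison; points are libraries, bars are the mean of 3, and the y axis is log2(FPKM + 0.5). Ccl6 and Ccr1 are high in both MI+CIH and MI, Cxcl17 is high in MI+CIH, and Ccl11 is low in MI.

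Cxcl17, a chemokine of mucosal surfaces such as the airways, had the largest change among the 27 genes in MI+CIH against each of the other groups. It had 4.39, 12.9 and 20.7 FPKM in MI+CIH, 0.299, 0.147 and 0.263 FPKM in MI, 0 FPKM in all 3 CIH libraries, and 0, 1.72 and 0 FPKM in sham. All MI+CIH libraries lay above all others, and sham 2 was the only library outside MI+CIH above 0.299 FPKM. Cxcl17 thus passed the filter of 0.5 FPKM only through MI+CIH, the group where it was high, and its place among the 27 genes rests on that group. With 3 reads in each CIH library as the floor, the mean in MI+CIH was at least 101-fold higher than in CIH. The fitted change was 4.48 (SE 0.6, adjusted p = 0.0016) against CIH, 3.76 (SE 0.6, adjusted p = 0.00471) against sham and 3.93 (SE 0.6, adjusted p = 0.049) against MI. Without MI+CIH 1 these were 5.08, 4.36 and 4.52, and without sham 2 the change against sham was 4.48, all of which passed. The call against MI was lost when any of 8 single libraries was left out: MI+CIH 3 (3.47, adjusted p = 0.125), each MI library (3.84 to 3.99, adjusted p = 0.0989 to 0.191), CIH 2, CIH 3, sham 1 or sham 3 (3.93 in each, adjusted p = 0.06 to 0.0692). The interaction of Cxcl17 was 4.65 (SE 0.84) and did not pass (adjusted p = 0.0674). It passed without MI+CIH 1 (5.24, adjusted p = 0.0217) or MI+CIH 2 (4.51, adjusted p = 0.0268).

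Markers of airway and lung were high in the same libraries as Cxcl17, though their sum had another order. The 7 markers summed to 345, 3620 and 1460 FPKM in MI+CIH, 2.74, 0.816 and 0.49 FPKM in MI, 0.752, 18 and 3.37 FPKM in CIH, and 2.54, 572 and 2.01 FPKM in sham. As for Cxcl17, the 3 MI+CIH libraries and sham 2 were the highest. The sum was higher in sham 2 than in MI+CIH 1, where Cxcl17 had 1.72 and 4.39 FPKM. It peaked in MI+CIH 2, and Cxcl17 in MI+CIH 3. Cxcl17 was at 0 in CIH 2, at a sum of 18 FPKM, and above 0 in the MI libraries, at sums of at most 2.74 FPKM. Scgb1a1, the secretoglobin of airway club cells, made up most of the sum, with 290, 2980 and 990 FPKM in MI+CIH and 485 FPKM in sham 2. Scgb3a1 had 35.4, 149 and 238 FPKM in MI+CIH and 30.6 FPKM in sham 2, the same order as Cxcl17 in these libraries. Scgb3a2 also peaked in MI+CIH 3, at 54.8 FPKM, while Scgb1a1, Sftpc, Sftpb, Foxj1 and Bpifa1 peaked in MI+CIH 2. Cxcl15, known in the mouse as a chemokine of lung epithelium, was below the filter, with 5.65 FPKM in MI+CIH 2, 0.0503 FPKM in MI+CIH 3, 0.35 FPKM in sham 2 and 0 in the other 9 libraries. The part of airway or lung tissue in the levels of Cxcl17 and Cxcl15 was not tested.

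Of the other homeostatic ligands, Cxcl13 and Cxcl16 rose and Cxcl12, Cxcl14, Ccl25 and Ccl27a did not pass in any comparison. Cxcl13, which attracts B cells through Cxcr5, had 11.6, 4.32 and 30.1 FPKM in MI+CIH, 8.11, 1.4 and 5.65 FPKM in MI, 0.124, 0.651 and 0 FPKM in CIH, and 2.03, 7.02 and 1.06 FPKM in sham. CIH lay below all other groups, while MI+CIH, MI and sham overlapped. The change was 4.1 (SE 0.78, adjusted p = 0.00517) in MI+CIH against CIH. It was 3.43 without MI+CIH 3 (adjusted p = 0.0196) and 4.76 without MI+CIH 2 (adjusted p = 0.00247). With voom on the recovered reads it was 6.76 and did not pass (adjusted p = 0.0703). Against sham the change in MI+CIH was 1.97 (adjusted p = 0.11), 1.3 without MI+CIH 3 (adjusted p = 0.338), and 2.64 without MI+CIH 2, which passed (adjusted p = 0.0429). The interaction also passed without MI+CIH 2 (4.18, adjusted p = 0.0488). For CIH against sham the change of -2.12 (SE 0.78) did not pass (adjusted p = 0.355). All CIH libraries lay below those of sham, as for 11.8% of all tested genes. The 5 B cell markers summed to 5.05, 4.59 and 9.21 FPKM in MI+CIH, 3.27, 2.23 and 2.36 FPKM in MI, 1.24, 2.97 and 1.02 FPKM in CIH, and 1.51, 4.24 and 2.55 FPKM in sham. Their part in the level of Cxcl13 was not tested.

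Cxcl16, a membrane-bound ligand of Cxcr6, had 7.9, 4.67 and 10.6 FPKM in MI+CIH, 3.21, 3.91 and 5.56 FPKM in MI, 2.46, 3.81 and 3.17 FPKM in CIH, and 3.63, 3.2 and 3.6 FPKM in sham. The MI+CIH libraries lay above those of CIH and sham and overlapped with MI. The change was 1.12 (SE 0.26, adjusted p = 0.0104) against CIH and 0.98 (SE 0.26, adjusted p = 0.0278) against sham. That against sham was lost without MI+CIH 1 (0.93, adjusted p = 0.0677), MI+CIH 3 (0.73, adjusted p = 0.1) or any sham library (0.93 to 1.01, adjusted p = 0.0626 to 0.0832). Without MI+CIH 2 it also passed against MI (1.06, adjusted p = 0.0263) and in the interaction (1.2, adjusted p = 0.0456). Exons of Cxcl16 share 552 bases with Zmynd15 on the opposite strand. Whether counting used strand is not given in the sources used here, so reads of the pair may not be told apart.

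Cxcl12 was the most abundant of the 50 genes in all libraries but MI+CIH 3 and MI 1. It had 15.5, 16.4 and 31.6 FPKM in MI+CIH, 17.8, 20.8 and 22.6 FPKM in MI, 25.0, 27.2 and 19.6 FPKM in CIH, and 22.4, 22.2 and 32.6 FPKM in sham. All 4 groups overlapped. The change in MI+CIH against CIH was -0.24 (SE 0.26, adjusted p = 0.519), and without MI+CIH 3 it was -0.56 (adjusted p = 0.0769). In CIH 1, where the summed FPKM of the 50 genes was lowest, Cxcl12 made up 45.3% of that sum, against 10.8% in MI+CIH 3.

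Its receptor Cxcr4 had 5.79, 4.45 and 10.9 FPKM in MI+CIH, 2.23, 3.31 and 2.82 FPKM in MI, 4.23, 5.33 and 3.82 FPKM in CIH, and 1.76, 2.68 and 3.06 FPKM in sham. Both groups with CIH lay above both groups without it. Cxcr4 rose by 1.26 (SE 0.28, adjusted p = 0.014) in MI+CIH against sham. Against MI the change in MI+CIH was 1.12 (SE 0.28, adjusted p = 0.0774) and in CIH against sham 0.74 (SE 0.28, adjusted p = 0.358), and neither passed. Without MI+CIH 3 the change against sham was 0.92 and passed (adjusted p = 0.0371), and without sham 1 it was 1.07 and did not (adjusted p = 0.0623). Without MI+CIH 2 the change against MI was 1.38 and passed (adjusted p = 0.0225). Cxcr4 was the only one of the 27 genes called against sham and not against CIH.

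Cxcl14, a chemokine of epithelia and fat tissue, had 4.84, 4.99 and 39.4 FPKM in MI+CIH, 9.34, 7.59 and 8.85 FPKM in MI, 4.56, 13.3 and 8.06 FPKM in CIH, and 9.22, 7.77 and 12.2 FPKM in sham. It was the leading gene of the 50 in MI+CIH 3, while MI+CIH 1 and 2 lay below every MI and sham library. Its change in MI+CIH against sham was 0.06, and -0.9 without MI+CIH 3 (adjusted p = 0.128). Against CIH it was 0.32, and -0.64 without MI+CIH 3 (adjusted p = 0.217). Ccl25 ranged from 0.591 to 1.97 FPKM and Ccl27a from 0.982 to 2.78 FPKM over the 12 libraries. Ccl25 had 1.44, 1.26 and 1.86 FPKM in MI+CIH, 1.37, 1.52 and 1.03 FPKM in MI, 1.52, 0.591 and 1.53 FPKM in CIH, and 1.15, 1.97 and 1.44 FPKM in sham. Ccl27a had 2.03, 1.94 and 1.23 FPKM in MI+CIH, 1.08, 1.27 and 0.982 FPKM in MI, 1.51, 1.4 and 2.78 FPKM in CIH, and 2.22, 1.7 and 1.03 FPKM in sham. Both overlapped between the groups in every comparison. Their exons overlap those of Elavl1 and Il11ra1 on the opposite strand, and Ccl27a and Ccl21a have near-identical copies in the mouse genome, so their values are uncertain.

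Among ligands of eosinophils and type 2 responses, Ccl11 fell in MI, Ccl24 fell in MI+CIH against CIH, and Ccl17 rose in MI+CIH. Ccl11, or eotaxin, a ligand of Ccr3, had 0.69, 0.277 and 0.493 FPKM in MI and 1.1, 3.47 and 3.2 FPKM in sham. It had 1.31, 1.69 and 0.924 FPKM in MI+CIH and 1.08, 1.24 and 1.06 FPKM in CIH. The MI libraries were the lowest of all 12, and sham 2 and sham 3 the highest. The change in MI against sham was -1.56 (SE 0.32, adjusted p = 0.0348), from 8 to 23 reads in each MI library. With voom the change was -2.27 (adjusted p = 0.0681). The call was lost when any of 7 single libraries was left out: MI 1 (-1.7, adjusted p = 0.0602), MI 2 (-1.4, adjusted p = 0.139), MI 3 (-1.57, adjusted p = 0.128), sham 2 (-1.32, adjusted p = 0.136), sham 3 (-1.37, adjusted p = 0.0994), MI+CIH 1 or CIH 3 (-1.56 and adjusted p = 0.0502 in both). Against sham the change in MI+CIH was -0.68 (adjusted p = 0.162), and -1.1 without sham 1, which passed (adjusted p = 0.0297).

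Ccl24, another ligand of Ccr3, had 0.296, 0.572 and 0.524 FPKM in MI+CIH, 1.13, 0.462 and 1.52 FPKM in MI, 0.741, 2.1 and 1.77 FPKM in CIH, and 0.706, 1.37 and 1.02 FPKM in sham. All MI+CIH libraries lay below all CIH and sham libraries. The change in MI+CIH against CIH was -1.02 (SE 0.33, adjusted p = 0.0388), the only fall among the 12 calls. It was lost when any of 7 single libraries was left out: any MI+CIH library (-1.11 to -0.89, adjusted p = 0.0507 to 0.109), CIH 2 (-0.81, adjusted p = 0.125), CIH 3 (-0.91, adjusted p = 0.118), MI 1 or sham 3 (-1.02 in both, adjusted p = 0.0512 and 0.052).

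Ccl17, a ligand of Ccr4 made by dendritic cells and macrophages, had 0.523, 0.755 and 1.32 FPKM in MI+CIH, 0.569, 0.218 and 0.389 FPKM in MI, 0.0691, 0 and 0 FPKM in CIH, and 0.0659, 0 and 0 FPKM in sham. It lay near 0 in CIH and sham and above that in every library of MI+CIH and MI. Only the MI+CIH libraries and MI 1 reached the 0.5 FPKM of the filter, so Ccl17 was tested through the group where it was high. These are 37 reads in MI+CIH, 18 in MI, 1 in CIH and 1 in sham. Per read of the libraries MI+CIH held 42.5 times as many as CIH, with a 95% exact interval of 7.17 to 1720. The fitted change was 1.35 (SE 0.26) in both comparisons, with adjusted p = 0.00497 against CIH and 0.00832 against sham, and both held when any single library was left out. Ccl22, the other Ccr4 ligand, was below the filter, with 0.107 to 0.396 FPKM in MI+CIH, 0.161 to 0.359 FPKM in MI, 0 to 0.0386 FPKM in CIH and 0.0142 to 0.175 FPKM in sham. Ccr4 itself did not exceed 0.0684 FPKM in any library.

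The 5 CXC ligands known to attract neutrophils were high in different libraries: Cxcl2 and Cxcl3 in MI+CIH 3, Cxcl15 in MI+CIH 2 and Cxcl1 in sham 2. Of the 5, Cxcl1 was tested. Together they summed to 0.338, 6.66 and 6.52 FPKM in MI+CIH, 1.48, 1.37 and 1.25 FPKM in MI, 0.832, 1.96 and 0.877 FPKM in CIH, and 2.7, 3.93 and 1.81 FPKM in sham. Cxcl1 had 0.225, 0.752 and 1.75 FPKM in MI+CIH, 1.0, 0.898 and 0.782 FPKM in MI, 0.777, 1.79 and 0.643 FPKM in CIH, and 1.52, 3.1 and 1.28 FPKM in sham. It was highest in sham 2 and passed in no comparison (-0.89, adjusted p = 0.153, in MI+CIH against sham). Its receptor Cxcr2, below the filter, had 0.277, 0.15 and 4.71 FPKM in MI+CIH, 0.117, 0.0736 and 0.0109 FPKM in MI, 0.0583, 0.314 and 0.0791 FPKM in CIH, and 0.289, 0.221 and 0.151 FPKM in sham. MI+CIH 3 held 402 reads of it, and no other library more than 32. The MI+CIH libraries lay above those of MI, which was not tested.

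Cxcl2 and Cxcl3 were also highest in MI+CIH 3. Cxcl2 had 0.0928, 0.222 and 4.06 FPKM in MI+CIH and 0.0172 to 0.966 FPKM in the other groups. Cxcl3 had 37 reads in MI+CIH 3, 1 read in sham 2 and 0 in the other 10 libraries. Cxcl5, another ligand of Cxcr2, reached 0.287 FPKM in MI+CIH 3, its highest value. Cxcl1 was likewise highest within its group in MI+CIH 3, at 1.75 FPKM. This value lay close to that of CIH 2 (1.79 FPKM) and below that of sham 2 (3.1 FPKM). The 8 neutrophil markers summed to 16.6, 2.36 and 163 FPKM in MI+CIH, 2.48, 3.42 and 3.09 FPKM in MI, 2.35, 5.28 and 3.5 FPKM in CIH, and 4.33, 5.88 and 15.3 FPKM in sham. Of the cytokines that induce chemokines, Il1b was 4.06 FPKM and Il6 was 1.76 FPKM in MI+CIH 3, against at most 0.753 and 0.275 FPKM elsewhere. Tnf, the other tested gene of that list, was 0.741 FPKM in MI+CIH 3 and highest in sham 1, at 1.61 FPKM, and the remaining 4 did not exceed 0.199 FPKM in any library. Their part in the levels of Cxcl2, Cxcl3 and Cxcr2 was not tested.

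**Figure D4:**
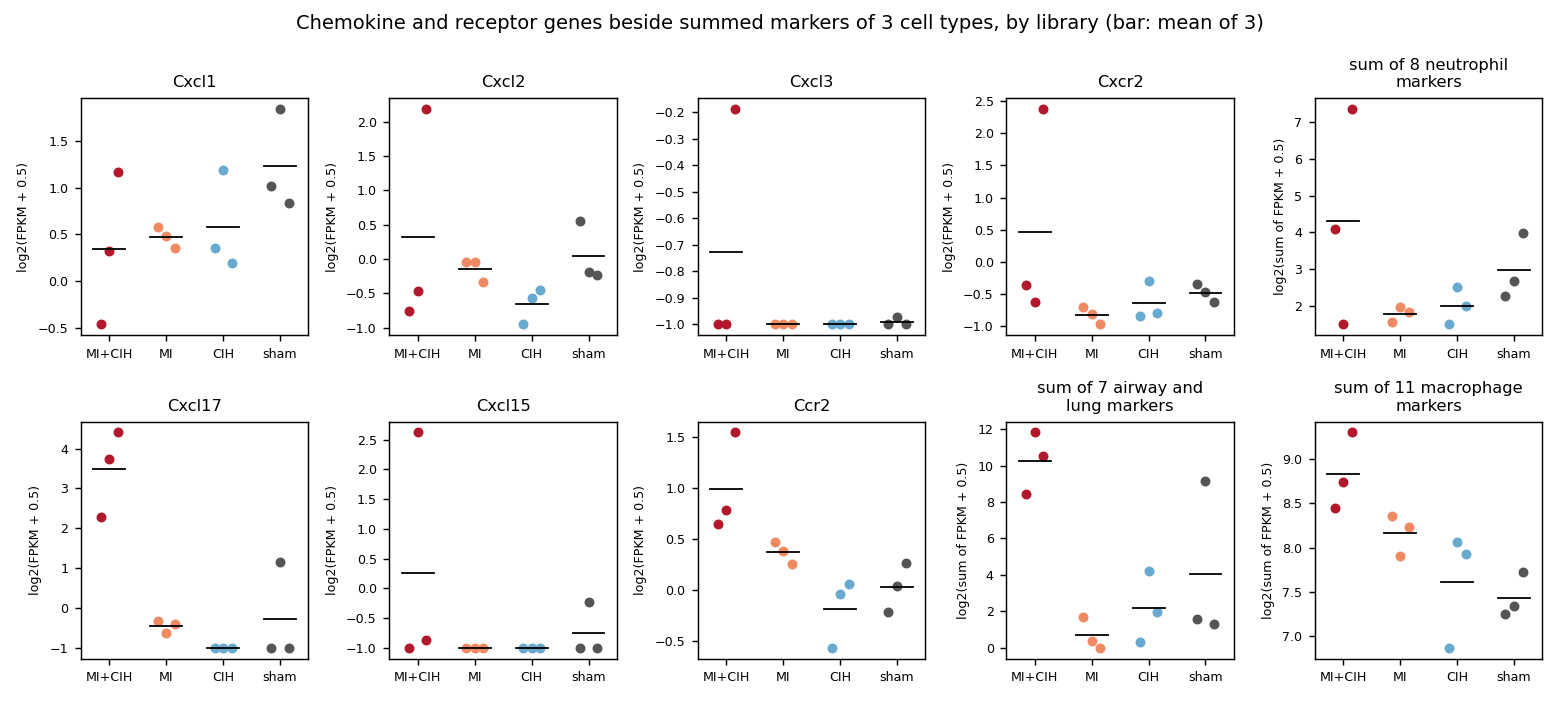
Points are libraries, bars are the mean of 3, and the y axes are log2(FPKM + 0.5) of a gene or of a summed marker list. Cxcl2, Cxcl3, Cxcr2 and the neutrophil sum peak in MI+CIH 3, and Cxcl17 and the airway and lung sum are highest in the 3 MI+CIH libraries and sham 2.

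The interferon-induced ligands Cxcl9 and Cxcl10, which attract T cells through Cxcr3, passed in no comparison. Cxcl10 had 1.31, 1.13 and 0.301 FPKM in MI+CIH, 0.678, 0.681 and 1.01 FPKM in MI, 0.253, 0.877 and 0.228 FPKM in CIH, and 1.25, 0.944 and 1.41 FPKM in sham. Cxcl9 had 3.91, 0.912 and 0.249 FPKM in MI+CIH, 0.571, 1.08 and 0.719 FPKM in MI, 0.907, 1.32 and 0.18 FPKM in CIH, and 2.15, 1.53 and 1.6 FPKM in sham. For both, MI+CIH 3 was the lowest MI+CIH library. The change of Cxcl9 in MI+CIH against CIH was 0.47, and 1.05 without MI+CIH 3 (adjusted p = 0.16). Without MI+CIH 3 the change of Cxcl10 in MI+CIH against CIH was 0.92 and passed (adjusted p = 0.0498), against 0.55 (adjusted p = 0.234) with it. Cxcl10 shares 133 exon bases with Art3 on the opposite strand, which makes its value uncertain. Cxcr3, below the filter, had 0.155, 0.367 and 0.392 FPKM in MI+CIH, 0.113, 0.0432 and 0.0385 FPKM in MI, 0.0205, 0.19 and 0.192 FPKM in CIH, and 0.0783, 0.328 and 0.381 FPKM in sham.

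Genes of the wider chemokine system were taken from lists of other chemokine genes, atypical receptors, receptor signalling, NF-κB and interferon regulators, inducing cytokines and Dpp4, a protease that cuts chemokines. These lists held 54 genes with a value, of which 45 were tested. Of the 45, 16 passed in MI+CIH against CIH (35.6%), where 28.2% of all genes passed. In MI+CIH against sham 14 passed (31.1%, against 16.8% of all genes), and in MI against sham 3 did (6.67%, against 1.96%). All of these were higher, and the medians were 0.52, 0.35 and 0.19. In CIH against sham, MI+CIH against MI and the interaction limma called 0, with 9, 8 and 10 at an unadjusted p under 0.05. These are 20%, 17.8% and 22.2% of the 45, against 11.8%, 18.9% and 21.2% of all genes. Voom also called 0 of them in each of these 3.

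Ackr2, an atypical receptor that takes up inflammatory CC chemokines without signalling through G proteins, had 2.79, 3.45 and 2.56 FPKM in MI+CIH, 2.33, 2.66 and 2.49 FPKM in MI, 0.796, 1.19 and 0.926 FPKM in CIH, and 0.942, 0.748 and 1.51 FPKM in sham. The 6 libraries of MI+CIH and MI lay above the 6 of CIH and sham, as for Ccl6 and Ccr1. It rose by 1.22 (SE 0.19, adjusted p = 0.00238) in MI+CIH against CIH, 1.15 (SE 0.19, adjusted p = 0.00499) in MI+CIH against sham and 0.96 (SE 0.19, adjusted p = 0.0319) in MI against sham. Cmklr1, the chemerin receptor of macrophages, rose in the same comparisons, by 1.08 (adjusted p = 0.002), 0.82 (adjusted p = 0.0089) and 0.97 (adjusted p = 0.0176). Cx3cr1, the fractalkine receptor, rose by 1.24 (adjusted p = 0.0157) in MI+CIH against CIH and 1.29 (adjusted p = 0.0208) against sham. Ackr3, which takes up Cxcl12, ranged from 3.58 to 7.34 FPKM in MI+CIH and from 6.15 to 12.2 FPKM in MI, a change of -0.92 that did not pass (adjusted p = 0.127).

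Of the 16 tested genes that relay chemokine receptor signals, 8 rose in MI+CIH against CIH: Arrb1, Arrb2, Dock2, Gnai1, Gng2, Grk5, Pik3cg and Rac2. Against sham 7 of the 16 rose in MI+CIH: Arrb2, Dock2, Gnai1, Gnai3, Grk5, Pik3cg and Rac2. Of all tested genes, 19.9% rose in MI+CIH against CIH and 11.3% against sham. Grk5, a kinase that desensitises such receptors, rose also in MI+CIH against sham (0.97, adjusted p = 0.00364) and in MI against sham (0.77, adjusted p = 0.0252). Of the 14 NF-κB and interferon regulators, Irf8, Irf9, Nfkb1, Nfkbiz and Stat2 rose in MI+CIH against CIH. Irf8, Nfkb1, Nfkbia and Nfkbiz rose against sham. The 2 tested inducing cytokines, Tnf and Il1b, and Dpp4 did not pass in any comparison.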

How the data were processed

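The authors deposited 1 table of FPKM for 12 heart libraries. Per the submitters' processing notes, the tools were HISAT, DESeq 1.8.3 and featureCounts 1.5.0-p3, on mm10. Per the labels' protocols the kit was one for small RNA, although the values cover long messenger RNAs. Whether counting used strand is not given in the sources used here. Symbols, exon lengths and positions came from GENCODE M21 (GRCm38). Whole reads were recovered from the FPKM steps, within 0.1 reads in all libraries, for 22797 of 25404 genes (89.7%) and for 47 of the 50 described (not Ccl28, Ccr6 and Cxcl14).

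Log2(FPKM + 0.5) was fitted over all 12 libraries with limma 3.58.1 (trend, robust, no covariates; R 4.3.3), with Benjamini-Hochberg adjustment over 15503 genes in each of 6 comparisons, and the fit was tested on simulated data. The genes and lists were chosen with earlier results of these data known. Values of every library are given for genes called in any comparison, those with a mean of at least 1 FPKM, and the pairs Ccl2 and Ccr2, Cxcl12 and Cxcr4, Cxcl1 and Cxcr2, and Cxcl10 and Cxcr3 (1 gene is counted in the totals and not reported here); others are named where groups did not overlap at a log2 change of 1 or more. Alternatives were other filters, pseudocounts and scaling, a replicate block, fits of the compared groups alone, libraries left out and, chosen after seeing the data, voom on the recovered reads. Cxcl11, Ccl19-ps1 and Ccl19-ps3 match by name but are not annotated as protein coding and were left out.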

Additional observations from a re-analysis of the deposited data

How the results depend on the processing

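No direction turned round in 476 values of the 22 calls under 22 alternatives, of which 389 passed. Of the 22 calls, 6 passed in every alternative that tested them. Among these were Ccl6, Ccl17, Ccr1 and Cxcl17 against CIH and Cxcl17 against sham in MI+CIH. Cxcl17 fell below the filter, and so was not tested, without both sham 2 and MI+CIH 3. Ccl17 was not tested under the filter on a mean of at least 1 FPKM. Its limma call against sham was lost without both libraries (adjusted p = 0.0811). Those of Ccl6, Ccr1 and Cxcr4 against sham were lost there and in a fit of the compared groups alone. Such a fit also lost the calls against CIH of Ccr2 (adjusted p = 0.0575) and Cxcl16 (adjusted p = 0.0528). That of Cxcl16 was lost without both libraries too (adjusted p = 0.0553). Among uncalled pairs of gene and comparison, 17 passed under some alternative. The number of calls in MI against sham, 1, became 0 without a filter, 2 with median-of-ratios scaling, 3 in a fit of these groups alone, 0 without both sham 2 and MI+CIH 3, and 0 with voom. In MI+CIH against MI it was 0 in place of 1 with a pseudocount of 0.1, in a fit of these groups alone, without both libraries and with voom. In MI+CIH against CIH it was 6 in place of 12 in a fit of these groups alone and also 6 without both libraries. In MI+CIH against sham it was 2 in place of 8 in a fit of these groups alone, Cxcl17 and Ccl17, and 0 without both libraries. The interaction had 1 call in place of 0 with median-of-ratios scaling. With 1 library left out, the calls numbered 0 to 2 in MI against sham, 0 to 4 in MI+CIH against MI, 9 to 13 in MI+CIH against CIH, 3 to 10 in MI+CIH against sham and 0 to 4 in the interaction. CIH against sham gave 0 throughout. The lowest count against sham, 3, came without sham 1. The cause of these changes was not tested. By design, a fit with fewer libraries has fewer degrees of freedom. With the replicate block, the calls in MI against sham and MI+CIH against MI were 0, those in MI+CIH against CIH 12 and against sham 8. Deviations from the group means were correlated between libraries of different groups. They correlated at -0.175 to 0.128 over 18 pairs of the same number, 3 of them above 0.1. Over 36 pairs of other numbers the range was -0.16 to 0.183, with 2 above 0.1. The numbers were not taken to pair the samples. Depth limits Ccl3, Ccl5 and Ccl17, which rest on few reads.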

Other observations

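Several genes below the filter were seen in few libraries. Ccl20, a ligand of Ccr6, had 6 reads in MI+CIH 2, 1 in MI+CIH 3 and 0 in the other 10 libraries. Ccl26 had 0.75 FPKM in MI+CIH 2 as its highest value and was above 0 in 2 libraries. Ccl1, Ccl19, Ccl21b, Ccl28, Ccr1l1, Ccr8, Ccr9 and Ccr10 did not exceed 0.223 FPKM in any library. Ccr3, the eosinophil receptor of Ccl11 and Ccl24, had 43 reads in MI+CIH 3 and at most 9 in any other. Ccr6 had 6 to 19 reads in the MI+CIH libraries, 3 to 7 in MI, 0 in CIH and 1 to 7 in sham. Its reads did not come out whole in all libraries. Cxcr6, the receptor of Cxcl16, had 0.185 to 0.42 FPKM in MI+CIH, 0.194 to 0.311 FPKM in MI, 0 to 0.248 FPKM in CIH and 0 to 0.0853 FPKM in sham. Its MI+CIH and MI libraries thus lay above all 3 sham libraries. Cxcr5, the receptor of Cxcl13, had 0.169 to 0.429 FPKM in MI+CIH and 0.0213 to 0.287 FPKM in CIH. The number of the 50 genes at 0.5 FPKM or more was 25, 25 and 26 in MI+CIH, 24, 21 and 22 in MI, 13, 19 and 16 in CIH, and 22, 23 and 22 in sham. None of these values was tested.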
